A study of Mus musculus with 2 samples.

Results

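The regions described here are stretches of open chromatin that were called in both ATAC-seq libraries of cultured mouse mast cells and that lie at an end of exactly 1 protein-coding gene. The called intervals of a Dnmt3a knockout library and a wild-type library on chromosomes 1 to 19 and X were merged where they overlapped by at least 1 bp. A merged region was kept if it held a peak of both lists and lay within 1 kb of the start or end of the interval of 1 protein-coding gene and no other. The rule kept 4553 regions, which is 35.4% of the 12871 shared regions (exact binomial interval 34.5 to 36.2%) and part of 23364 merged regions in all. The regions were thus chosen by the presence of a called peak in both lists and by position at a gene end, so neither is a result about them, and differences between the lists within these regions come from the same contrast and are given as description only.

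Dnmt3a knockout and wild-type bone marrow-derived mast cells were compared, with 1 library of each genotype. Both cultures were grown from femur and tibia marrow of mice aged 3 to 4 weeks, littermates that the series' design text gives as female, for 4 weeks in interleukin 3, and received no other treatment. Over 95% of the cells in such cultures carried Kit and the IgE receptor alpha chain, per the labels. The labels give neither the allele nor what drove the deletion of Dnmt3a, nor how many animals were used. ATAC-seq cuts accessible DNA with the Tn5 transposase, here on nuclei prepared with 0.1% Igepal, with 50 bp read from 1 end of each fragment, and the labels state 10 M reads of depth. With 1 library per genotype there is no replicate check, no test was made, and all intervals below cover counting error only.

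The stretch of DNA just before the start of a gene, its promoter, is usually free of nucleosomes where the gene can be transcribed, which is why ATAC-seq peaks gather there. Many promoters of genes used in most cell types lie in CpG islands, which are rich in G and C and in the CpG dinucleotide and are normally unmethylated, and they hold short sequences bound by factors such as SP/KLF proteins, ETS proteins, NFY, NRF1 and YY1. Dnmt3a is an enzyme that places new methyl groups on CpG sites, mostly outside such islands. Mast cells are tissue-resident immune cells that release histamine, proteases and lipid mediators after IgE receptor activation, and depend on the growth factor receptor Kit and on transcription factors such as Gata2 and Mitf.

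To show the sequence under such regions, promoter windows are printed for the strongest region carrying each of 7 motifs, leaving out a gene already taken for an earlier motif. Windows of 4 genes of the mast cell lists follow. They were taken from 2038 regions whose window held the summits of both libraries and whose listed start lay within 50 bp of the start of the gene interval. A summit is the position of the highest pileup of a peak, and the strongest region is the one with the highest pileup summed over both libraries. Each window runs from 250 bases before to 50 bases after the listed start of the gene, was taken from RefSeq on build GRCm38.p6 and is written 5′ to 3′ on the gene's strand. Capitals mark exact matches, on either strand, to the searched letters. SP/KLF proteins were searched as GGGCGGG and ETS proteins as CCGGAAG. The YY1 letters were AAGATGGCG, those of NFY were CCAATNAG and those of CREB were TGACGTCA. For the E-box, bound by proteins such as Mitf and Usf, CACGTG was used, and for E2F the letters were GCGGGAAA. NRF1 was searched by its palindrome of 10 letters, seen as the first run of capitals in Dohh, and BANP by its own of 10, the last run of capitals in Atf2. ZNF143 was searched by a motif of 12 letters. Of factors known from blood cells, GATA proteins were searched as AGATAA and RUNX proteins as TGTGGTT. The AP-1 letters were TGANTCA, those of PU.1 were GAGGAAGT and those of STAT proteins were TTCNNNGAA. TATAAA was searched on the gene's strand alone, beginning 40 to 20 bases before the start. No motif lies whole within another, but neighbouring matches can join into 1 run of capitals, as in Cbx8, where an E-box match touches an SP/KLF match. Dop1b, printed for ETS, lies at chr16:93711657-93711956 on the plus strand. Dohh, which encodes the hydroxylase that completes hypusine on a translation factor, is printed for NRF1 and lies at chr10:81384184-81384483 on the plus strand. Ptbp1, which encodes a splicing repressor, is printed for YY1 and lies at chr10:79854182-79854481 on the plus strand. Dnpep, which encodes an aspartyl aminopeptidase, is printed for SP/KLF and lies at chr1:75317588-75317887 on the minus strand. Uvrag, which encodes an autophagy protein, is printed for NFY and lies at chr7:99141095-99141394 on the minus strand. Cbx8, which encodes a Polycomb subunit, is printed for CREB and lies at chr11:119040864-119041163 on the minus strand. Atf2, which encodes a CREB-family transcription factor, is printed for BANP and lies at chr2:73892590-73892889 on the minus strand. The genes of the mast cell lists are Gata2 at chr6:88193641-88193940 on the plus strand, Kit at chr5:75574737-75575036 on the plus strand, Gzmb, which encodes the protease granzyme B, at chr14:56262285-56262584 on the minus strand, and Cebpa, which encodes a myeloid transcription factor, at chr7:35119043-35119342 on the plus strand.
Dop1b: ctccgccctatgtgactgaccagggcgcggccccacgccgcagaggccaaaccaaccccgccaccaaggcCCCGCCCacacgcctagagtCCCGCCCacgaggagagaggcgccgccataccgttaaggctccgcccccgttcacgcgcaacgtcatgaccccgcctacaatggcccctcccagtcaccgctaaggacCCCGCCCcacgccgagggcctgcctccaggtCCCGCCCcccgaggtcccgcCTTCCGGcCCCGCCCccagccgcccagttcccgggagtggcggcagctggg
Dohh: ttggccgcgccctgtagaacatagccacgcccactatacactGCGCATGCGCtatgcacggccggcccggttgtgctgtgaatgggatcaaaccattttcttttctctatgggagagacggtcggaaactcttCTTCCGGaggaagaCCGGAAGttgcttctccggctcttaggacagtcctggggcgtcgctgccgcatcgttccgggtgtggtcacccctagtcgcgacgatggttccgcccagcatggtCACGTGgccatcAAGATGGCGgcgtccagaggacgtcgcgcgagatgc
Ptbp1: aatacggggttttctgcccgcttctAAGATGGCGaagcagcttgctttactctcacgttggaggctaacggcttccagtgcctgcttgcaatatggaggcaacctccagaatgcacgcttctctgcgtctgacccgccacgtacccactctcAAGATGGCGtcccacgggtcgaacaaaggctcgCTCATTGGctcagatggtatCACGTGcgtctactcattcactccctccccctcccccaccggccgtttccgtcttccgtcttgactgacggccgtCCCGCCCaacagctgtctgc
Dnpep: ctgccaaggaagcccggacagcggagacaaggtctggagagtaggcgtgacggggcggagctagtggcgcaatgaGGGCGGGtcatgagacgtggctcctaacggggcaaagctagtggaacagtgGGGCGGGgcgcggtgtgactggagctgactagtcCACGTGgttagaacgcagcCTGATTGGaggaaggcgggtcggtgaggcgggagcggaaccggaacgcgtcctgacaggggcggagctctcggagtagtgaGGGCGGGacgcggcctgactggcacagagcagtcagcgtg
Uvrag: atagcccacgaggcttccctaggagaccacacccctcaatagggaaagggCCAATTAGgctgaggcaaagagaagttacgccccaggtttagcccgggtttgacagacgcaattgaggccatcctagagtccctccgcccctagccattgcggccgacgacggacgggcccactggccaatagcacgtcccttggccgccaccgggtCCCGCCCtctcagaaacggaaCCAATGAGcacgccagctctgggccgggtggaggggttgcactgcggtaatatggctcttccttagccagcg
Cbx8: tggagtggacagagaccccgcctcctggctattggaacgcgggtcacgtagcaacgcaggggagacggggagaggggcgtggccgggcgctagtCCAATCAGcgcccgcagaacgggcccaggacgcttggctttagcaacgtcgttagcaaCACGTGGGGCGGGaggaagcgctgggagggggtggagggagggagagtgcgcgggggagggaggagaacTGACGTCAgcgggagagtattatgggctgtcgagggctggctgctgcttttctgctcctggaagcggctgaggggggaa
Atf2: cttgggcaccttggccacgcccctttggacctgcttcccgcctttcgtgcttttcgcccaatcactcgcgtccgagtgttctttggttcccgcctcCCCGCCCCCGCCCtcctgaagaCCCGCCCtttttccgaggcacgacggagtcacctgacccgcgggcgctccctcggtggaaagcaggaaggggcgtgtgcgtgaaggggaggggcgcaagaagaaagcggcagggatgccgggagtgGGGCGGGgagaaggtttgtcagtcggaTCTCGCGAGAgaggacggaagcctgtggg
Gata2: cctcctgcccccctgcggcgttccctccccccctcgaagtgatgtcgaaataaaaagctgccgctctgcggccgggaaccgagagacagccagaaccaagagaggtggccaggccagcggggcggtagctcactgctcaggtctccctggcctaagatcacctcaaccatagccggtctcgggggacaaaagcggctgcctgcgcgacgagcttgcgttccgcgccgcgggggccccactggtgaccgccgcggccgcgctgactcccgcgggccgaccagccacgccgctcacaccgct
Kit: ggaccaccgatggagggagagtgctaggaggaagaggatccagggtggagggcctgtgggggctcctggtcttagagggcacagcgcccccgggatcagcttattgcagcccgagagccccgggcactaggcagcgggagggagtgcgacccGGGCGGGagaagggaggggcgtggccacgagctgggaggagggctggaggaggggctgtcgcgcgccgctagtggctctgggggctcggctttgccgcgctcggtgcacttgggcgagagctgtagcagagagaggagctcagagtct
Gzmb: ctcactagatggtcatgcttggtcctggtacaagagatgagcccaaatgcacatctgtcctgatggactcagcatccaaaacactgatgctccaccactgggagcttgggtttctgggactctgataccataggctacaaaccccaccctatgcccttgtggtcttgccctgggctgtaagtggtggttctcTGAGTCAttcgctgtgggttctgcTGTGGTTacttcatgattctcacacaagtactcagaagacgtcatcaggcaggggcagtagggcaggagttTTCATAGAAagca
Cebpa: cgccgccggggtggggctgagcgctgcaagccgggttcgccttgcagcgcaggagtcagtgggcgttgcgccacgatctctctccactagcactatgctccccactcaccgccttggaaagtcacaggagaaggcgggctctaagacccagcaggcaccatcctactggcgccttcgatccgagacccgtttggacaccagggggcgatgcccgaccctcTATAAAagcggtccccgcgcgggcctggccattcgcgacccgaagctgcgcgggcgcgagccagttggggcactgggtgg
Pileup is the number of fragments counted as overlapping at a summit, recovered as a whole number from the deposited values. Only 1 end of each fragment was read, so fragment lengths were not observed, and how reads were extended is not given. The Dop1b region had a pileup of 40 in the knockout and 42 in the wild-type library, with summits at −158 bp in the knockout and −148 bp in the wild type, among SP/KLF matches. The Dnpep region had 49 fragments in the knockout and 44 in the wild type, the highest knockout pileup of all these regions. Gzmb had 18 fragments in the knockout and 15 in the wild type, and its window had a CpG observed over expected of 0.103, against 0.621 for Kit, 0.853 for Cebpa and 0.90 for Gata2. Cebpa had 11 fragments in the knockout and 12 in the wild type, and its window held the TATA letters and no other searched motif. The Gata2 window held none of the searched letters, and Kit held 1 SP/KLF match. Gzmb, with its low CpG content, carried AP-1, RUNX and STAT letters and none of the motifs of general promoter factors.

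The files held 19684 knockout and 17170 wild-type peaks, with a median summit pileup of 9 in both. They give no total read count, so ratios of pileup between the libraries are read beside the median ratio of all shared regions. In bulk chromatin, a site open in fewer cells and one less open in each cell cannot be told apart. Of 10 mast cell markers, 4 (Kit, Ms4a2, Gata2 and Mitf) had a shared region at an end of that gene alone, 1 (Fcer1g) had a shared region at ends of several genes, 1 had a knockout-only region, 2 had a wild-type-only region and 2 had none. The neutrophil list had 0 of 18 genes with such a region, the basophil and eosinophil list 0 of 12 and the B cell list 0 of 14, while the macrophage list had 4 of 20, the erythroid and megakaryocyte list 4 of 18 and the T and NK cell list 2 of 18. No region lay within 1 kb of an end of Dnmt3a, so the regions do not check the genotype labels.

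The regions were wider and higher than shared regions inside and between genes, and close to those at ends of several genes. Their median width was 238 bp, against 250 bp for 1086 shared regions at ends of several genes, 206 bp for 4309 inside genes and 201 bp for 2923 between genes. Median pileup was 13 fragments in the knockout and 12 in the wild type. The same medians were 14 in the knockout and 12 in the wild type at ends of several genes, 11 in the knockout and 10 in the wild type inside genes, and 10 in the knockout and 9 in the wild type between genes. In these regions the 10th percentile was 7 in both libraries and the 90th percentile was 25 in the knockout and 22 in the wild type, with maxima of 49 in the knockout and 54 in the wild type. The local background around the summits moved the same way, at a median of 0.39 fragments in the knockout and 0.37 in the wild type, against 0.43 in the knockout and 0.41 in the wild type at ends of several genes and 0.25 in both between genes. Its part in the pileups was not tested. Of the regions called in 1 library only, 1361 of 6541 knockout-only regions (20.8%) and 890 of 3952 wild-type-only regions (22.5%) lay at an end of 1 gene. Those single-library regions were lower, with a median pileup of 7 in each list, which is near the lower end of the shared ones.

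Nearly all regions lay at gene starts. The gene table gives no strand, but the promoter table gave it for the genes of 3771 regions, and 3639 of these (96.5%, interval 95.9 to 97.1%) lay at the start, among them 12 at both ends of a short gene. Genes with both ends in reach included the linker histone gene H1f2, with 14 fragments in the knockout and 13 in the wild type, the histone gene H4c4, with 13 in the knockout and 11 in the wild type, and Gpx1, which encodes glutathione peroxidase, with 15 in the knockout and 13 in the wild type. Strand was not in the table for 782 regions, and 132 lay at the end only. Of all regions, 3016 (66.2%) overlapped the gene end itself and 378 lay over 500 bp from it. At the 1 kb limit, the last regions inside were at Ints6l (999 bp, 28 fragments in the knockout and 18 in the wild type), Gorab (997 bp, 18 in the knockout and 8 in the wild type) and Clk3 (994 bp, 10 in the knockout and 9 in the wild type). The first regions outside were at Sec14l2 (1003 bp, 7 in the knockout and 6 in the wild type), Csf2ra (1004 bp, 20 in the knockout and 21 in the wild type) and Klf13 (1005 bp, 14 in the knockout and 15 in the wild type), so the pileups on both sides of the limit were alike in range.

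Measured from the nearest listed start, the summits sat in a narrow band just upstream. The median summit position was −62 bp in the knockout (quartiles −125 and −10, n = 3554) and −64 bp in the wild type (quartiles −126 and −8, n = 3553). Upstream summits made up 78.8% in the knockout and 77.6% in the wild type, and summits within the first 150 bp upstream made up 59.4% in the knockout and 58.3% in the wild type. Within a region the 2 libraries placed their summits a median of 29 bp apart, and in 3275 regions (71.9%) within 50 bp. More than 1 peak of a list fell in 238 regions (5.23%). The rule required the peaks of the 2 libraries to overlap, which limits how far apart the summits can lie. The share within 50 bp was 71.2% for shared regions at ends of several genes, 74.6% inside genes and 75.4% between genes.

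**Figure D1:**
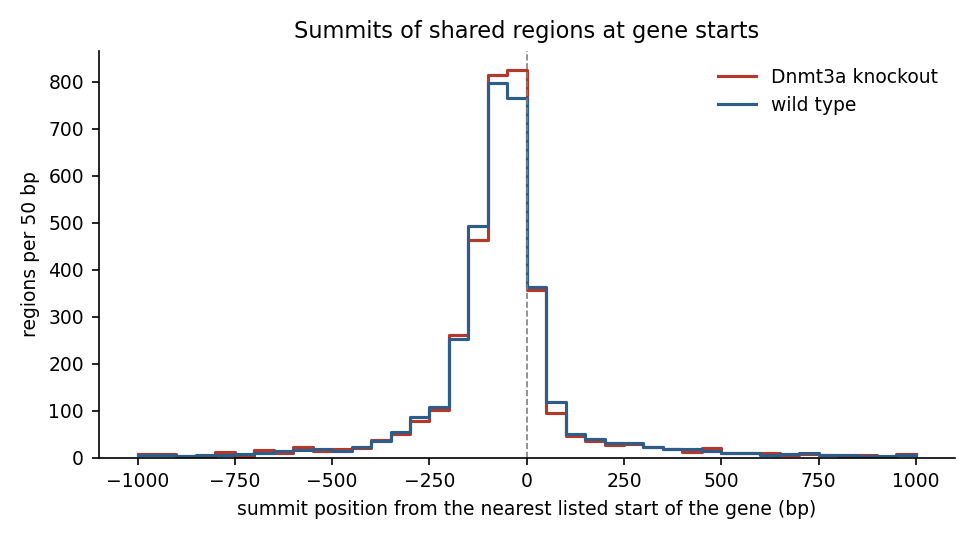
Number of regions per 50 bp of summit position from the nearest listed start of the gene, negative values upstream, for the Dnmt3a knockout and wild-type libraries. Both lines peak in the 100 bp before the start, with medians of −62 bp in the knockout and −64 bp in the wild type.

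The strongest regions by the authors' −log10 q belonged to genes of general cell functions. Camsap1, whose protein binds the minus ends of microtubules, ranked first of these regions in the knockout list, with 48 fragments in the knockout and 41 in the wild type at chr2:25983259-25983662. Qdpr, which encodes the enzyme that regenerates tetrahydrobiopterin, had 47 fragments in the knockout and 42 in the wild type. E2f3, a cell cycle transcription factor gene, had 48 in the knockout and 36 in the wild type. These 3 regions were high in both libraries. Pitrm1, a mitochondrial peptidase gene, had 42 fragments in the knockout and 30 in the wild type, and Pja2, a ubiquitin ligase gene, had 47 in the knockout and 38 in the wild type. Sel1l, which encodes an adaptor of the degradation of misfolded proteins in the endoplasmic reticulum, and Hibch, which encodes an enzyme of valine breakdown, each had 41 in the knockout and 34 in the wild type. Stt3a, the catalytic subunit of N-glycosylation, had 42 in the knockout and 33 in the wild type, and Rab30 had 40 in the knockout and 34 in the wild type.

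In the wild-type list the first rank of these regions went to Gins2, which encodes a subunit of the replicative helicase complex, with 44 fragments in the knockout and 54 in the wild type at chr8:120589067-120589542. Opn3, an opsin gene, had 41 in the knockout and 45 in the wild type, Ankrd50 43 in the knockout and 39 in the wild type, Mxd4 44 in the knockout and 41 in the wild type, and Ppm1b, a phosphatase gene, 45 in the knockout and 44 in the wild type. Glce, which encodes the epimerase that shapes heparin and heparan sulfate, had 22 in the knockout and 34 in the wild type. Camsap1 and Qdpr were among the top 10 of both lists. Of the leading genes named, Glce had the lowest knockout pileup.

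Pileups of the 2 libraries lay along one line in most regions. The ratio of knockout to wild-type pileup had a median of 1.10 in these regions (10th and 90th percentiles 0.765 and 1.6), against 1.09 over all shared regions. Unscaled, the knockout pileup was higher in 2654 regions, the wild-type pileup in 1397 and both were equal in 502. Beside the median ratio of all shared regions, 2341 regions lay above it, 2165 below it and 47 at it. A ratio at least 2-fold above the median of all shared regions was found in 53 regions (1.16%), where the share over all 12871 shared regions was 1.67%, and at least 2-fold below it in 56 (1.23%), where that share was 1.66%. Nothing is read from these counts, since the same contrast chose the regions. For a region of median height, 13 fragments in the knockout and 12 in the wild type, the ratio of 1.08 had a counting interval of 0.456 to 2.60, so a 2-fold difference in such a region was not detectable at this depth. The counting interval lay wholly above the median ratio in 7 regions, where the share over all shared regions was 0.218%, and wholly below it in 5, where that share was 0.101%.

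Those 12 regions, singled out after their values were seen, include genes of several functions. The largest ratio was at Cyp2r1, a vitamin D hydroxylase gene, with 16 fragments in the knockout and 4 in the wild type. Stx6, a vesicle fusion gene, had 26 in the knockout and 10 in the wild type. Zbtb40 had 18 in the knockout and 5 in the wild type, Gpt2, an alanine transaminase gene, 17 in the knockout and 5 in the wild type, Zfp868 22 in the knockout and 8 in the wild type, and Xrra1 24 in the knockout and 10 in the wild type. On the lower side Pde8a, a cyclic AMP phosphodiesterase gene, had 4 fragments in the knockout and 13 in the wild type, and Zfp322a had 6 in the knockout and 16 in the wild type. Cdc5l, a spliceosome gene, had 7 in the knockout and 17 in the wild type, Pdxk, which makes active vitamin B6, had 10 in the knockout and 21 in the wild type, and Rbm42 had 14 in the knockout and 26 in the wild type.

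Among the 844 regions with at least 40 fragments summed over the libraries, the ratios ran from 0.538 to 2.08. None was 2-fold above the median of all shared regions and 1, Rbm42, was 2-fold below it. The highest ratios were at Klhl36 (27 fragments in the knockout and 13 in the wild type), at Chd8, a chromatin remodeller gene (29 in the knockout and 14 in the wild type), and at Wrnip1, a DNA repair gene (29 in the knockout and 14 in the wild type). Vcp, which encodes an ATPase that unfolds ubiquitinated proteins, and Med23, a Mediator subunit gene, each had 32 in the knockout and 17 in the wild type. Ccnyl1 had 30 in the knockout and 15 in the wild type, Hinfp, a histone gene regulator, had 27 in the knockout and 14 in the wild type, and Arrdc1 and Them6 each had 30 in the knockout and 16 in the wild type. D030056L22Rik had 28 in the knockout and 15 in the wild type. After Rbm42 the lowest ratios were at Skil, a repressor of TGF-beta signalling (16 in the knockout and 26 in the wild type), Gatad2b, a subunit of the NuRD complex (17 in the knockout and 27 in the wild type), and Glce. Cd3d at its end and Slc25a3, the mitochondrial phosphate carrier gene, each had 16 in the knockout and 24 in the wild type, Kri1 had 19 in the knockout and 28 in the wild type, Pex10 18 in the knockout and 26 in the wild type, Vps26a, a retromer gene, 19 in the knockout and 27 in the wild type, and Fbxo48 20 in the knockout and 28 in the wild type.

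**Figure D2:**
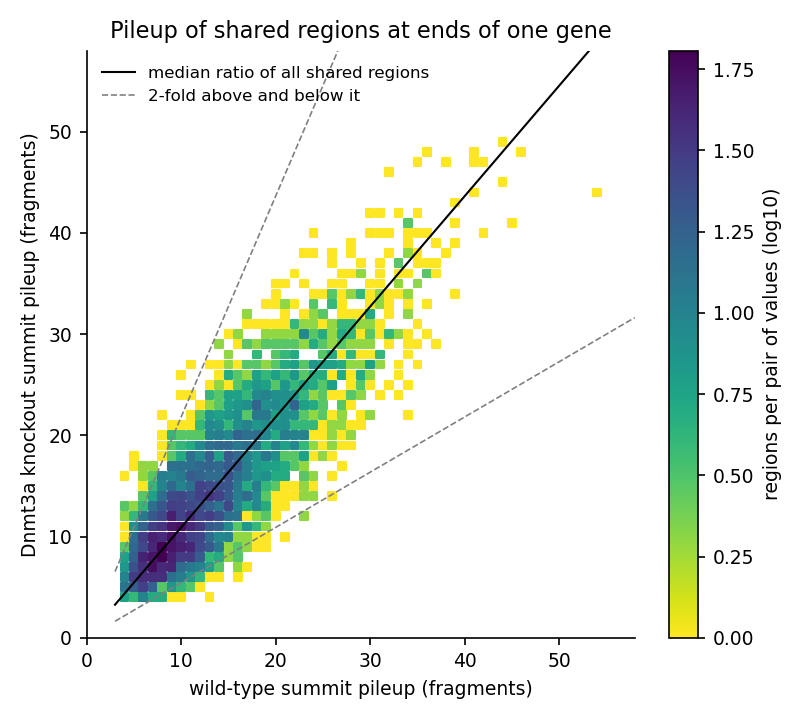
Summit pileup in the Dnmt3a knockout library (vertical axis, fragments) against the wild-type library (horizontal axis, fragments) for the 4553 regions, coloured by the log10 number of regions at each pair of values. The solid line is the median ratio of all shared regions, 1.09, and the dashed lines lie 2-fold above and below it; the spread narrows at high pileup.

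The median ratio differed little with the promoter. It was 1.11 for 2670 CpG-rich promoters and 1.08 for 657 others, and over 5 groups of promoters by GC content it ran between 1.07 and 1.12. By motif it ranged from 1.0 for promoters with NRF1, RUNX or TATA letters (60, 116 and 31 promoters) to 1.20 for 30 promoters with BANP letters. Median pileup was 11 fragments in the knockout and 10 in the wild type with NRF1 letters, and 15 in the knockout and 12.5 in the wild type with BANP letters. By chromosome the median ratio ranged from 1.05 on chromosome 5 to 1.17 on chromosome X. With 1 library per genotype the spread that such medians would have between cultures is unknown.

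The regions belonged to 4270 of 21631 protein-coding genes (19.7%, interval 19.2 to 20.3%). One region was found at 3998 genes, 2 regions at 261 and 3 at 11. Sp4, an SP-family transcription factor gene, had 3 regions at its start, with 32, 23 and 20 fragments in the knockout and 24, 18 and 17 in the wild type. Lnpep, an aminopeptidase gene, had 25, 14 and 29 in the knockout and 29, 13 and 20 in the wild type, and Ube2d3, a ubiquitin conjugating enzyme gene, had 24, 22 and 12 in the knockout and 13, 26 and 15 in the wild type. Dcps, which encodes the scavenger decapping enzyme, had 2 regions at its end and 1 at its start. Such regions share a gene and are not independent of each other. Genes with a region had a median length of 25 kb, against 17.3 kb for all protein-coding genes. Among chromosomes, X had the lowest share of genes with a region, 11.8% (114 of 966, interval 9.83 to 14%), and chromosome 10 had the highest, 24.1%.

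The share of genes with a region varied widely between lists. Of 42 gene lists, 28 had a share above the 19.7% of all genes and 9 had no gene with a region. The largest shares were 55.0% for DNA methylation genes (11 of 20), 54.8% for ubiquitin conjugating enzymes (17 of 31), 53.6% for cytosolic ribosomal proteins (45 of 84), 53.3% for Mediator subunits (16 of 30) and 51.4% for cell cycle genes (18 of 35). Other lists of basic cell functions were lower, at 33.3% for proteasome subunits, 31.2% for mitochondrial ribosomal proteins and 22.7% for vacuolar ATPase subunits. Rpl13a, a ribosomal protein gene, had 27 fragments in the knockout and 26 in the wild type, and Rps3 and Rpl27 each had 20 in the knockout and 22 in the wild type. Cdk4, the cyclin-dependent kinase gene of G1, had 30 in the knockout and 34 in the wild type, and Ccnd2, one of its cyclins, had 31 in the knockout and 27 in the wild type. Hspa8, the constitutive heat shock protein gene, had 34 in the knockout and 32 in the wild type, Rab8a, a vesicle traffic gene, 37 in the knockout and 33 in the wild type, and Eif2ak3, which encodes a stress kinase of translation, 33 in the knockout and 26 in the wild type. Zinc finger Zfp genes had a region in 27.2% (108 of 397), led by Zfp869 with 40 in the knockout and 30 in the wild type. Solute carriers had a region in 19.5% (71 of 364). Counting a region at ends of several genes as well, 67.9% of cytosolic ribosomal protein genes and 28.6% of all genes had a shared region. By that count the largest shares were 72% for mitochondrial import proteins, 70.6% for tRNA synthetases and 70% for Mediator subunits. DNA methylation genes stood at 60%, mitochondrial ribosomal proteins at 61%, proteasome subunits at 51.3% and vacuolar ATPase subunits at 40.9%. The order of the lists given above thus holds only for regions at an end of 1 gene alone.

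**Figure D3:**
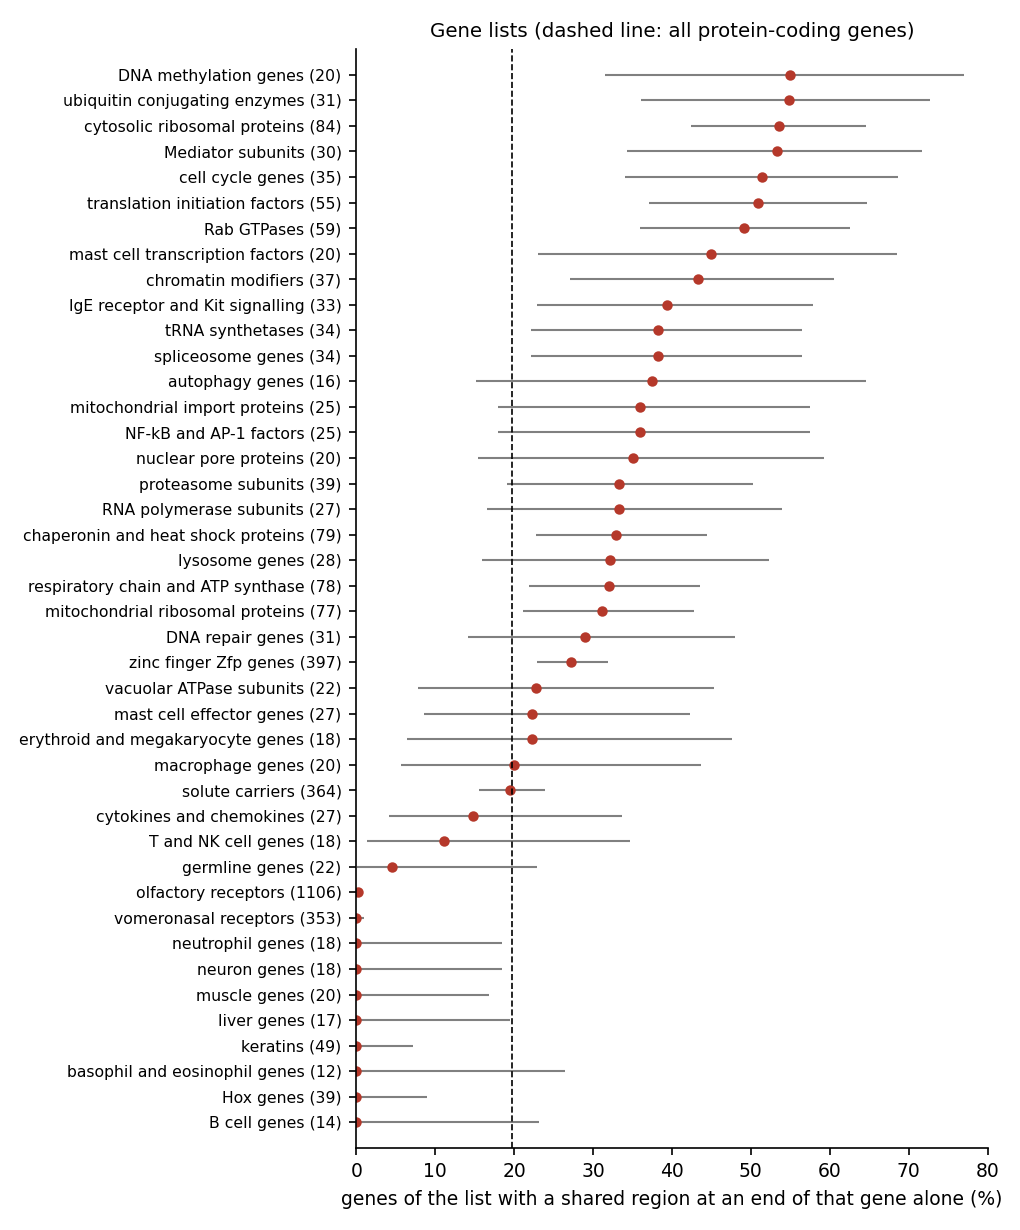
Share of the genes of each list that had a shared region at an end of that gene alone, in percent, with exact binomial 95% intervals and the number of listed genes in parentheses. The dashed line marks the 19.7% of all protein-coding genes; DNA methylation genes lead at 55.0% and 9 lists stand at 0.

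Among the listed DNA methylation genes, which include Dnmt3a, several readers and erasers had regions. The methyltransferases and the erasers Tet1 and Tet3 did not. Among others, regions were found at the methyl-CpG binding genes Mbd1, Mbd2 and Mbd3, at Cxxc1, Uhrf1 and Zbtb33, at the demethylation genes Tet2 and Tdg, and at Gadd45a and Gadd45b. Mbd3 had 25 fragments in the knockout and 23 in the wild type, Gadd45a had 20 in the knockout and 27 in the wild type, Cxxc1 23 in the knockout and 16 in the wild type, and Tet2 8 in the knockout and 9 in the wild type at 739 bp from its start. No region of any kind lay at an end of Dnmt1, Dnmt3a, Dnmt3b, Dnmt3l, Tet1, Tet3 or Hells.

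The list of mast cell transcription factors had a region in 9 of 20 genes (45%, interval 23.1 to 68.5%). It also holds general myeloid factors such as Cebpa, so a region at a listed gene is not in itself a mark of mast cells. Lyl1 had 26 fragments in the knockout and 25 in the wild type, Gata2 had 25 in the knockout and 21 in the wild type, and Meis1 had 16 in the knockout and 16 in the wild type. Mitf, which drives mast cell genes, had 23 in the knockout and 15 in the wild type, and Spi1, which encodes PU.1, had 13 in the knockout and 6 in the wild type. Runx1 had 18 in the knockout and 23 in the wild type, Stat5a, a signal transducer of interleukin 3, had 11 in the knockout and 17 in the wild type, Tfe3 13 in the knockout and 11 in the wild type, and Cebpa 11 in the knockout and 12 in the wild type. The pileups of Spi1 and Stat5a leaned in opposite directions, and the counting intervals of both ratios hold the median of all shared regions. No region lay at an end of the other 11, among them Gata1, Fli1 and Ikzf1.

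Of the 27 mast cell effector genes, 6 had such a region (22.2%, interval 8.62 to 42.3%), a share near the 19.7% of all protein-coding genes and equal to that of the erythroid and megakaryocyte list. Kit had 21 fragments in the knockout and 20 in the wild type at chr5:75574857-75575069. Alox5, which encodes the first enzyme of leukotriene synthesis, had 21 in the knockout and 17 in the wild type, and Ltc4s, which encodes leukotriene C4 synthase, had 20 in the knockout and 16 in the wild type at its end. Gzmb had 18 in the knockout and 15 in the wild type, Tpsb2, a tryptase gene, 18 in the knockout and 13 in the wild type, and Ms4a2, the beta chain of the IgE receptor, 6 in the knockout and 7 in the wild type. The ratio lay above the median of all shared regions in 4 of the 6, where 2341 of all 4553 regions did, and below it at Kit and Ms4a2. Fcer1g, Ndst2 and Tph1 had shared regions at ends of several genes. Hdc, Hpgds, Slc18a2 and Tpsg1 had a region in the knockout list only and Cma1, Cpa3 and Fcer1a in the wild-type list only, and 11 genes, Srgn and Il1rl1 among them, had none. Of all 21631 protein-coding genes, 1382 had a knockout-only and 737 a wild-type-only region and no shared one.

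Genes of IgE receptor and Kit signalling had a region in 13 of 33 (39.4%). Fyn, a Src-family kinase gene, had 24 fragments in the knockout and 14 in the wild type, Pik3r1, the regulatory subunit of PI 3-kinase, 17 in the knockout and 22 in the wild type, and Map2k1, the kinase of ERK, 21 in the knockout and 16 in the wild type. The others included Cbl, Inpp5d, Mapk3, Orai1, Plcg1, Prkca, Prkcb and Rasgrp4. Syk and Btk, kinases close to the receptor, had none. Factors of the NF-kB and AP-1 families had a region in 9 of 25, led by Jun with 31 in the knockout and 26 in the wild type, Fosl2 with 21 in the knockout and 25 in the wild type and Relb with 19 in the knockout and 25 in the wild type. Of 27 cytokine and chemokine genes 4 had one: Ccl2 had 10 in the knockout and 8 in the wild type, Il10 15 in the knockout and 9 in the wild type, Il6 8 in the knockout and 10 in the wild type, and Osm 16 in the knockout and 20 in the wild type.

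Lists of genes of other cell types differed. The erythroid and megakaryocyte list had a region in 22.2% of genes (4 of 18) and the macrophage list in 20% (4 of 20), both near the 19.7% of all genes. Olfactory receptors had 3 of 1106 (0.271%) and germline genes 1 of 22, Dazl, with 10 fragments in the knockout and 8 in the wild type, 658 bp from its start. The lists of neutrophil, basophil and eosinophil, B cell, neuron, liver, muscle, Hox, keratin and vomeronasal receptor genes had none. Macrophage genes with a region were Fcgr1, an IgG receptor gene (12 in the knockout and 10 in the wild type), Marco (11 in the knockout and 9 in the wild type, at its end), C1qc (9 in the knockout and 10 in the wild type) and Cx3cr1 (9 in the knockout and 6 in the wild type). The T cell receptor genes with one were Cd3d and Cd3e, both at the end of the gene, Cd3e with 4 fragments in the knockout and 6 in the wild type. The defining T cell genes Cd4, Cd8a and Lck, and the macrophage genes Adgre1, Csf1r and Cd68, had no region of either library at an end.

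At gene ends alone the 132 regions were lower and narrower than those at starts. Their median pileup was 10 fragments in the knockout and 9 in the wild type, against 13 in the knockout and 12 in the wild type at 3627 starts, and their median width was 199.5 bp, against 241 bp. One of them had another listed start of the same gene within 1 kb, 2 had the start of a noncoding gene there and 129 had neither. The strongest were at Slc30a2, a zinc transporter gene (33 in the knockout and 26 in the wild type), Traip, a ubiquitin ligase gene of DNA replication (28 in the knockout and 28 in the wild type), 4933440N22Rik (27 in the knockout and 21 in the wild type) and Olfr70 (24 in the knockout and 22 in the wild type). The gene table holds no exons, so whether such regions lie in exons or introns was not examined.

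The promoter windows of genes with a region at the start were mostly rich in CpG. Each gene's window was that of the listed start nearest to the start of the gene interval, whether or not it overlapped the region. Measured from the nearest listed start, 79.5% of summits in the knockout and 78.5% in the wild type lay within the reach of such a window. The CpG and motif shares therefore describe promoters of these genes and not always the sequence under the region. Of 15534 windows used for all protein-coding genes, 3327 belonged to genes with a region at the start. A promoter was called CpG-rich where GC was at least 50% and CpG observed over expected, the number of CpG relative to that from the C and G content, at least 0.6. That held for 80.3% of promoters with a region (interval 78.9 to 81.6%), 84.2% of those with a shared region at several genes, 71.2% with a knockout-only region, 70.4% with a wild-type-only region, 25.5% with no region and 46.9% of all. The median GC was 62.0% with a region and 51.3% with none. In 4 groups of like size by summed pileup, lowest to highest, the CpG-rich share was 73.9%, 79.4%, 80.1% and 87.5%. Read the other way, 36.7% of CpG-rich promoters (2670 of 7284) and 7.96% of the others (657 of 8250) had a region at the start.

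**Figure D4:**
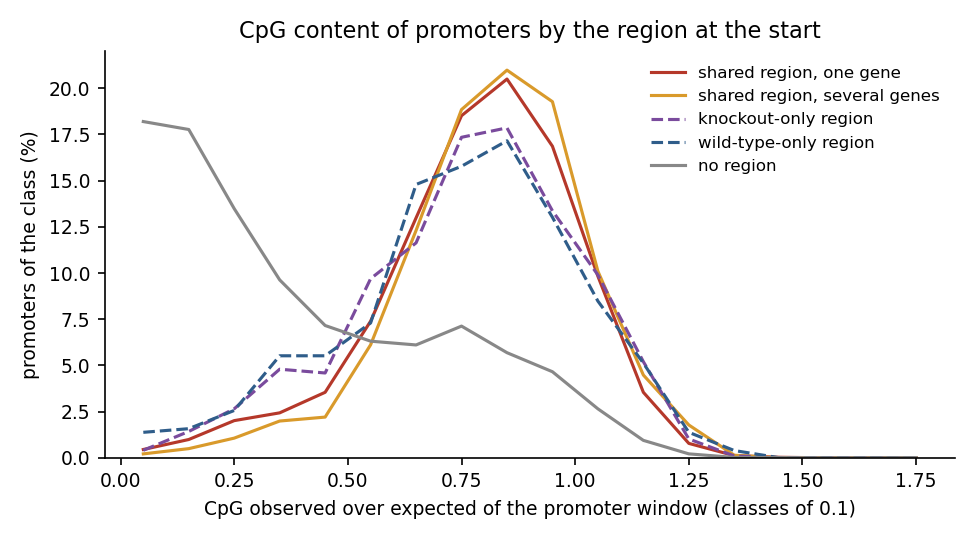
Share of promoters, in percent of each class, by CpG observed over expected in classes of 0.1, for promoters with a region at the start shared by both libraries at 1 gene or at several genes, with a knockout-only or wild-type-only region, or with none. Classes with a region peak between 0.8 and 0.9, whereas promoters with none pile up at low values.

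Some strong regions lay at promoters that were not CpG-rich, chosen here after their values were seen. Acadm, a gene of fatty acid oxidation, had 38 fragments in the knockout and 32 in the wild type. Havcr2, which encodes the immune receptor TIM-3, had 35 in the knockout and 33 in the wild type with a CpG observed over expected of 0.197. Zyx, a focal adhesion gene, had 34 in both libraries, and Runx3, a blood cell transcription factor gene, had 27 in the knockout and 35 in the wild type with 0.264. Lyl1, Runx1, Jun, Alox5, Gzmb and Fcgr1 also lay at promoters below the limit. Ppm1b, with 45 fragments in the knockout and 44 in the wild type, had a window below the limit as well. That window was the one nearest to the start of the gene interval, and the region lay 864 bp from this start. From the nearest listed start its summits lay at −226 bp in the knockout and −232 bp in the wild type. The promoter under the Ppm1b region was thus not shown to be low in CpG.

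Motif letters differed with the region. SP/KLF letters were in 57.7% of promoters with a region, 22.5% with none and 34.8% of all. ETS letters were in 20.6% with a region, 5.45% with none and 12.2% of all, and NFY letters in 14% with a region, 6.60% with none and 8.96% of all. The E-box was in 11.3% with a region, 6.08% with none and 8.11% of all. ZNF143 letters were in 5.95% with a region, 1.01% with none and 2.92% of all, YY1 letters in 3.97% with a region, 0.537% with none and 2.01% of all, CREB in 3.58% with a region, 1.32% with none and 2.41% of all, and E2F in 2.61% with a region, 0.795% with none and 1.48% of all. NRF1 letters were in 1.80% with a region, 0.913% with none and 1.44% of all, and BANP letters in 0.902% with a region, 0.311% with none and 0.727% of all. None of the 9 motifs of general promoter factors (ETS, NRF1, YY1, SP/KLF, NFY, CREB, E-box, E2F and ZNF143) was present in 19.3% of promoters with a region and 46.5% of all, and 3 or more were in 7.0% with a region and 3.17% of all. GATA, AP-1, RUNX and STAT letters were rarer with a region than in all promoters when CpG content was not taken into account. GATA was in 5.11% with a region, 12.9% with none and 10.0% of all, AP-1 in 4.24% with a region, 9.02% with none and 7.06% of all, RUNX in 3.49% with a region, 5.85% with none and 4.82% of all, and STAT in 6.19% with a region, 8.80% with none and 7.91% of all. PU.1 letters were in 3.01% with a region, 3.48% with none and 3.23% of all, and TATA letters in 0.932% with a region, 4.37% with none and 2.97% of all. A match is a description of letters and not a bound site.

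**Figure D5:**
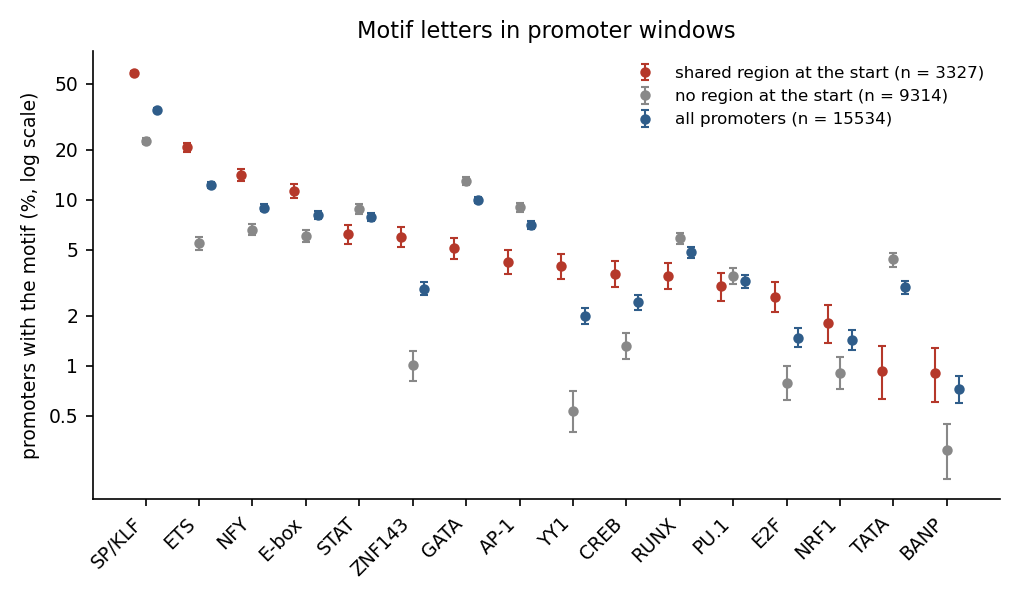
Share of promoter windows holding each motif, in percent on a log scale, for promoters with a shared region at the start, with no region there, and for all promoters, with exact binomial 95% intervals. SP/KLF, ETS and NFY lead at 57.7%, 20.6% and 14% of promoters with a region.

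The share of a motif moves with base composition, so it was also taken within CpG classes, an addition made after the values were seen. Among CpG-rich promoters ETS letters were in 22.1% with a region and 12% with none, NFY in 14.1% with a region and 6.06% with none, ZNF143 in 5.58% with a region and 1.43% with none and YY1 in 4.46% with a region and 1.56% with none, while the median GC was 64.0% with a region and 66.3% with none. SP/KLF letters were closer in this class, at 63.4% with a region and 56.8% with none, and NRF1 letters ran the other way, at 2.02% with a region and 2.99% with none. Among promoters that were not CpG-rich, ETS letters were in 14.9% with a region and 3.23% with none and GATA letters in 11.7% with a region and 16.2% with none, with a median GC of 53.7% with a region and 47.7% with none. SP/KLF letters were in 34.6% of these with a region and 10.8% with none. NRF1 letters were in 0.913% with a region (6 of 657) and 0.202% with none. PU.1 letters in that class were in 5.78% with a region and 4.01% with none, and STAT letters in 10.8% with a region and 10.1% with none. AP-1 and RUNX letters stayed lower there, AP-1 at 7.46% with a region and 11.1% with none and RUNX at 5.02% with a region and 7.03% with none. Within CpG-rich promoters the shares of blood cell motifs were close or higher with a region: AP-1 letters were in 3.45% with a region and 3.07% with none, RUNX in 3.11% with a region and 2.4% with none, STAT in 5.06% with a region and 4.97% with none and GATA in 3.48% with a region and 3.58% with none.

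Motifs also differed with the height of the region. From the lowest to the highest of the 4 groups by summed pileup, NFY letters were in 8.65%, 10.6%, 16.1% and 20.8% of promoters with a region, SP/KLF letters in 49.3%, 57.3%, 58.2% and 66.0%, and ZNF143 letters in 3.85%, 6.01%, 6.38% and 7.57%. ETS letters were in 25%, 18.5%, 22.6% and 16.5% and NRF1 letters in 3.25%, 2.04%, 1.44% and 0.481%. Thus the shares of NFY, SP/KLF and ZNF143 letters were highest in the strongest group and those of ETS and NRF1 letters in the weakest. The median centre of ETS matches lay at −33 bp from the start, that of SP/KLF at −62 bp and that of YY1 at 19 bp after it. In promoters with no region these medians were −28 bp for ETS, −58 bp for SP/KLF and 14 bp for YY1. The positions of ETS, SP/KLF and YY1 letters were thus much alike with and without a region. Those of NFY letters were too, at −71.5 bp with a region and −70.5 bp with none. Some other motifs lay further apart, such as NRF1 at −52.5 bp with a region and −32 bp with none. RUNX letters lay at −128 bp with a region and −78 bp with none.

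Regions called in 1 library only lay near some shared ones. A knockout-only region lay within 1 kb of 232 regions (5.10%) and a wild-type-only region within 1 kb of 189 (4.15%). For shared regions inside genes the same shares were 3.43% for knockout-only and 3.57% for wild-type-only neighbours, and at ends of several genes 5.06% for knockout-only and 5.43% for wild-type-only ones.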

How the data were processed

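ATAC-seq peak lists of 1 Dnmt3a knockout and 1 wild-type library were analysed. The submitters' processing notes name Trimmomatic, Bowtie2 and MACS2 and the builds mm10 and GRCm38. The sources used here do not give versions, parameters, the handling of duplicate reads or whether reads were shifted to the cut site of Tn5, which would displace summits by a few bases. Per the file layout, every peak the authors deposited has a score, a fold enrichment, a summit offset, a p-value and a q-value, both as −log10. Each score equals the −log10 q-value times 10. These authors' values serve only to order or describe peaks of the same list.

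The deposited fold was taken as the ratio of (pileup + 1) to (local background + 1) at the summit, and the p as Poisson. Solving both gave a whole pileup for 100% of peaks (tolerance 0.001 in −log10 p). Local background was at least 0.0599 fragments in the knockout and 0.0644 in the wild type; total depth is unknown.

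Genes came from a RefSeq table of GRCm38.p6 with 21631 protein-coding genes. Promoter windows of 300 bases were listed for 17274 genes, none on chromosome 18, and 15534 within 1 kb of the start of the gene interval were used, a limit added after seeing the data. The BANP, PU.1 and STAT letters, the CpG strata and the counting-interval call were added too. Shares have exact Clopper-Pearson intervals at 95%, and ratio intervals come from the conditional binomial. Overlapping fragments without molecular identifiers are not independent molecules. Python 3.11.15, NumPy 2.4.6, pandas 2.3.3, SciPy 1.17.1 and matplotlib 3.10.9 were used, and code was tested on simulated data. The regions, lists and motifs were chosen with earlier results of these data known.

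Genes were named by rule: the top 10 by −log10 q in each list, the 10 highest and 10 lowest ratios at a summed pileup of at least 40, the 3 strongest of a gene list, and all mast cell effector and transcription factor genes with a region. Others are said to be chosen after their values were seen or stand as examples of a class. Some genes that meet these rules are not reported here.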

Additional observations from a re-analysis of the deposited data

How the results depend on the processing

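Of 90 values computed under alternatives, 68 stayed within the counting interval of the main value or within 1.5 times of a count, and 22 moved. The share of shared regions at ends of 1 gene was 36.3% when peaks of both lists had to reach a −log10 q of 5, 33.8% with a 500 bp limit, 37.0% with 2.5 kb and 29.3% with genes of all types. The share of regions past 2-fold of the median ratio, 2.39%, was 1.55% at that q limit, 1.88% with equal numbers of peaks and 15.9% with a 1.5-fold limit. The share of genes with a region was 18.6% at the q limit, 19% with equal numbers, 17.9% with a reciprocal overlap of 50%, 19.1% with 500 bp and 16.4% with all gene types. Reciprocal overlap gave a median knockout pileup of 14 and 76.0% of summits within 50 bp. The share at gene starts was 97.9% with 500 bp and 93.7% with 2.5 kb. CpG-rich promoters made up 78.6% with 2.5 kb and 60.1% with an observed over expected of 0.75. On the given strand alone, ETS letters were in 11.5%, YY1 in 3.28%, SP/KLF in 35.2% and NFY in 7.63%. The cause was not tested, apart from the looser or stricter limits themselves. Leaving out a library leaves nothing to compare. No paired analysis was possible because there is only 1 library per genotype. Median pileups of 13 and 12 fragments limit single-region ratios.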
